A study of Mus musculus with 6 samples.

Results

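The genes described here encode the junction proteins of the blood-testis barrier, the seal that Sertoli cells form between each other in the seminiferous epithelium, and of the contacts between Sertoli cells and germ cells. A list of 42 genes was taken by symbol, and 34 of them were found among the 14000 genes of the expression table. The other 8 (the tight junction genes Cldn1, Tjp3 and Cxadr, the connexin gene Gjb2, the desmosomal genes Dsp, Dsg2 and Dsc2 and the laminin gene Lama3) were not analysed here. By junction type the 34 comprised 11 tight junction genes, 2 gap junction genes, 11 adherens junction genes, 2 desmosomal genes, 5 genes of integrin-laminin contacts and 3 genes of polarity complexes, the last being a type added to hold Patj, Pard3 and Pard6b.

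Whole-testis poly(A) RNA of 6 wild-type males of the C57BL/6N strain was sequenced, with 3 mice per group. H+Cd males (the study's HFD1D) were F1 offspring of fathers on a high-fat diet (HFD), and H+H+Cd males (HFD2D) were F2 offspring after 2 successive paternal generations on the diet. The fathers had the diet from week 5 to week 15 of age and were mated with females on normal chow. All 6 offspring then took CdCl2, a reproductive toxicant, in drinking water for 10 weeks and were killed as young adults. Cadmium and a paternal HFD were therefore common to both groups, the further diet generation goes together with the generation of the mouse, and no group lacking either exposure was analysed here. The study took 1 male from each litter for its experiments, but the labels state no more than that the 6 are separate samples. The p-values therefore set the difference between groups against the spread of these samples within groups, which the main fit (limma) adjusts towards that of genes of similar level.

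Sertoli cells divide the epithelium into a basal part and an adluminal part in which meiosis and spermiogenesis proceed out of reach of the blood. The barrier is built from tight junctions, which close the space between neighbouring cells, together with adherens junctions bound to actin (the ectoplasmic specialisation), gap junctions and desmosome-like contacts, and it opens and closes again as spermatocytes cross it. Junction proteins of related families also hold developing spermatids to Sertoli cells, and cadmium is known to damage the barrier.

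Sequences are given at this point for isoforms and for a gene that are described below. The 1st is an exon of Tjp1, which encodes the scaffold protein ZO-1. It spans chr7:65314093-65314332 on the minus strand (mm10, GENCODE M21), is coding throughout with 240 bases or 80 codons, and is present in transcript ENSMUST00000102592.9 but absent from ENSMUST00000032729.7. This exon encodes the region known as the alpha domain of ZO-1. The 2nd is a coding exon of 33 bases in Cadm1 (chr9:47829377-47829409, plus strand), which adds 11 codons next to the membrane-spanning segment of this adhesion molecule and is present in ENSMUST00000085909.8 and in 2 other listed transcripts, but not in the most abundant one, ENSMUST00000114547.7. In both, the exon is in capitals and the 15 bases of transcript on each side are in lower case.
Tjp1 exon: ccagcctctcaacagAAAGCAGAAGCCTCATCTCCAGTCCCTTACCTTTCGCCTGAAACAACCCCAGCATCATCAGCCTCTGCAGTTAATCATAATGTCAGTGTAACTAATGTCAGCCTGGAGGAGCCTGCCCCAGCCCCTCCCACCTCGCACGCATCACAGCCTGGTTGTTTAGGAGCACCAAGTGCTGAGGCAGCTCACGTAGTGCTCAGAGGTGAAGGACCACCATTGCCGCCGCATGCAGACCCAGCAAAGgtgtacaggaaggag
Cadm1 exon: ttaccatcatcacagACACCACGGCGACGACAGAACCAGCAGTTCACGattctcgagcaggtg
The last is the 250 bases in front of the start of Cldn11 (chr3:31149670-31149919, plus strand, RefSeq on GRCm38.p6), the member with the smallest p-value. Capitals mark matches to CCAAT on the opposite strand, which read ATTGG here and lie at bases -66 to -62 and -35 to -31 from the start.
Cldn11 promoter: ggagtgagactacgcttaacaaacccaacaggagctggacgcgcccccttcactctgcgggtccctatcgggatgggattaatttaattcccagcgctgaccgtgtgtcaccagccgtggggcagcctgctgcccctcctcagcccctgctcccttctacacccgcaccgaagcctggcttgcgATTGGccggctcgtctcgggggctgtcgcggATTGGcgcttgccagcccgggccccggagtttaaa
The letters CCAAT were searched on both strands and were chosen after the sequence had been seen. They occurred in 33.8% of all 32851 promoter windows of this length and in 15 of the 33 windows (45.5%) that the sequence table holds for 23 of the 34 junction genes. A match is a stretch of letters and not a known site. No match to GGGCGG or TATAAA was found in the Cldn11 window.

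Expression was given in FPKM, a count of fragments set against transcript length and against the total of mapped fragments, so that levels may be compared between genes. The FPKM of a gene was summed over its listed transcripts. Read depth is unknown, summed FPKM per library was 382815 to 397147, and Pearson's r between libraries over all genes, which are not independent replicates, was 0.9731 to 0.9848. The testis label was checked against marker lists. Germ cell markers were present in full (12 of 12) at summed FPKM of 6160 to 9020 in H+Cd and 6608 to 7156 in H+H+Cd, and Sertoli cell markers (19 of 21 in the table, none at 0) at 840.1 to 887.8 and 817.3 to 840.2. Most of the germ cell sum was Tnp1 and Prm1, with means over all libraries of 3774 and 2607 FPKM. Among the markers tested, 10 of 12 germ cell, 9 of 19 Sertoli cell, 0 of 7 peritubular myoid and 1 of 7 macrophage genes had negative log2 fold changes. Without overlap between groups, 6 of the 12 germ cell markers were lower in H+H+Cd and 0 higher (50%, against 19.4% of all genes). Of the 19 Sertoli cell markers 3 were lower and 4 higher in this way (36.8%). Endothelial markers (8 of 11 in the table) summed to 8.22 to 8.67 FPKM in H+Cd and 7.08 to 10.98 in H+H+Cd. The library H+H+Cd replicate 1 stood apart, with epididymal markers (6 of 12 in the table) summing to 106.4 FPKM against 6.72 to 8.54 in the other 5 libraries and placental markers (34 of 48) to 330.1 FPKM against 28.2 to 57.0. Crisp1 alone gave 86.1 of these 106.4 FPKM. Adam7, Rnase9 and Spint3 were also highest in that library, whereas Rnase10 and Defb21 were not. Some placental markers, such as Plac1, Plac8 and Prl3c1, were not highest there either. Another library, H+Cd replicate 2, was low in Leydig cell markers (7 of 7 in the table), which summed to 240.4 FPKM against 434.3 to 534.2 in the other 5 libraries. Insl3 had 45.5 FPKM there against 234.9 to 275.8 elsewhere, whereas Star, Cyp17a1 and Hsd3b1 were not lowest in it. The part that these differences have in the results was not tested. For several genes the log2 fold change is given with and without H+H+Cd replicate 1. In bulk tissue, fewer cells of a type and less RNA per cell cannot be told apart.

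The levels of the junction genes spanned a wide range. Nectin3, which encodes a nectin known from spermatids, where it binds Nectin2 of the Sertoli cell, was the most abundant. Its level was 155.7, 163.2 and 153.1 FPKM in H+Cd replicates 1, 2 and 3 and 152.7, 154.7 and 168.0 FPKM in the H+H+Cd replicates. Cadm1, Cldn11, Cdh2, Tjp1, Ctnnb1 and Itgb1 followed with means over all libraries of 34.6, 32.1, 28.5, 24.3, 22.2 and 21.5 FPKM. The order of neighbours among these 6 did not exceed the spread over libraries, since Cadm1 (29.1 to 37.4 FPKM) overlapped Cldn11 (29.2 to 35.8) and Cldn11 overlapped Cdh2 (24.7 to 32.4). At the lower end, Nectin1, Pard3 and Marveld2 had means of 0.598, 0.480 and 0.372 FPKM. Marveld2, which encodes tricellulin, the protein of the corners where 3 cells meet, had 0.427, 0.436 and 0.494 FPKM in H+Cd and 0.388, 0.0738 and 0.416 FPKM in H+H+Cd. It did not reach the mean of 0.5 FPKM in either group that was required for testing, which left 33 genes.

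**Figure D1:**
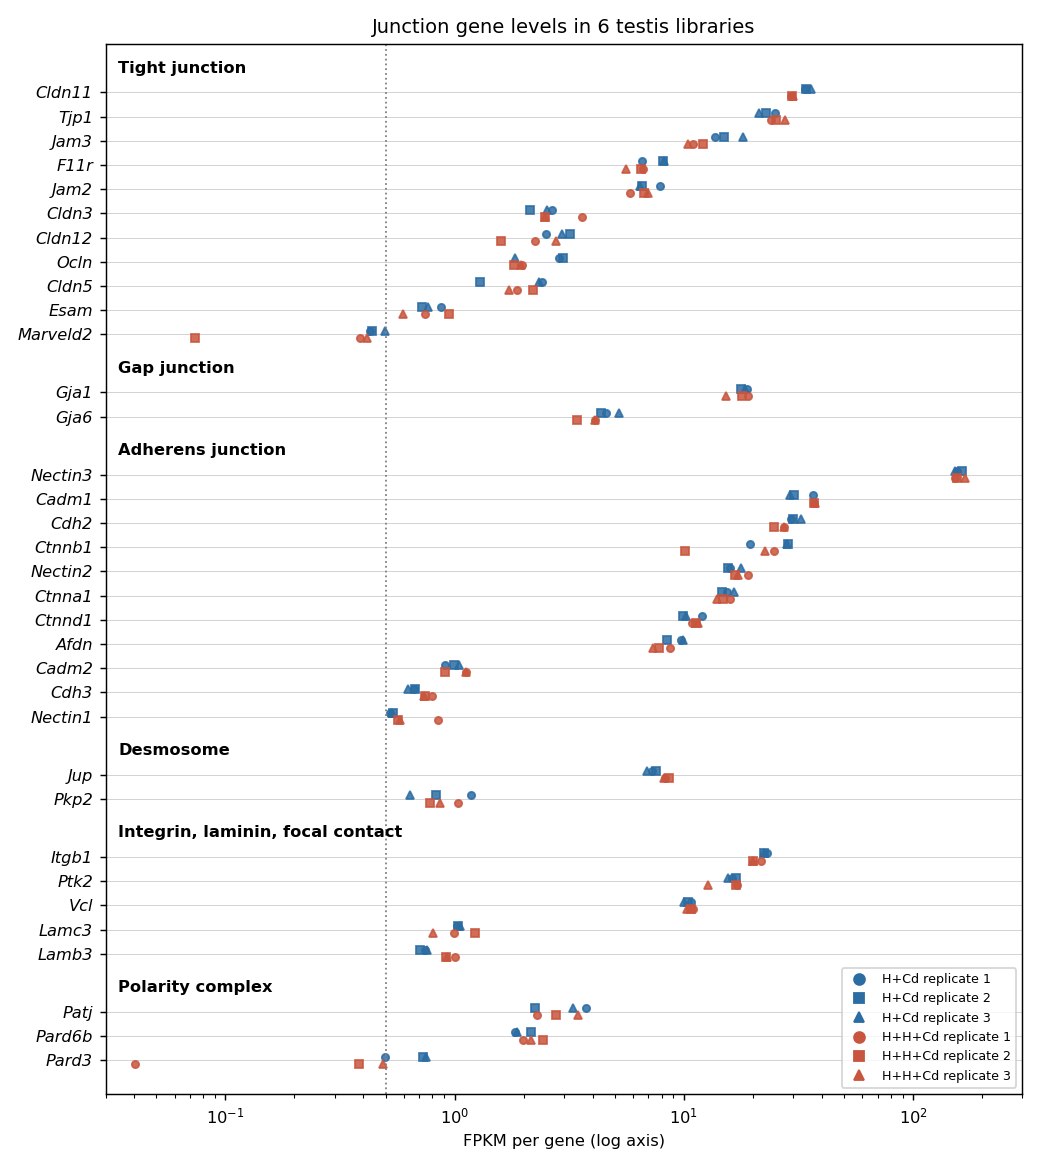
Level of each of the 34 junction genes (FPKM per gene, log axis) in 3 H+Cd libraries (blue) and 3 H+H+Cd libraries (red), ordered by mean level within junction type, with a dotted line at 0.5 FPKM. Nectin3 lies above all other genes at 152.7 to 168.0 FPKM, Marveld2 lies below the line in all libraries, and the 2 groups lie close together for most genes.

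The comparison of H+H+Cd with H+Cd asked whether the expression of junction genes under cadmium differed when a second paternal generation had been on the HFD. On the log2(FPKM + 1) scale, which understates changes of low genes, 0 of the 33 genes passed the threshold of 0.05 over all 13769 genes tested (limma, Benjamini-Hochberg, smallest adjusted p = 0.358), where 1 gene passed in all (0.00726%). An unadjusted p under 0.05 was found for 4 junction genes (12.1%) against 11.9% of all genes, and by the ordinary F-test for 7 (21.2%) against 10.9%. The 4 by limma were Cldn11, Jam3 and Cdh2 with lower levels in H+H+Cd (6.59% of all genes) and Jup with a higher level (5.31% of all genes). The share by limma is near that of all genes, while those by the F-test and, with quantile normalization, by limma (6 genes, 18.2% against 11.9%) are above it, and no test of these shares was made. Without H+H+Cd replicate 1, Cldn11, Jam3 and Cdh2 had such a p (9.09%), against 8.05% of all genes. The share without H+H+Cd replicate 2 was below that of all genes (6.06% against 9.79%).

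The log2 fold change was positive for 14 junction genes and negative for 19, where 49.8% of all genes were negative, and the median was -0.025 against 0.001 over all genes. In 11 of the 33 (33.3%) all libraries of a group lay on the same side of those of the other group, as in 19.4% of all genes tested. This held with lower values in H+H+Cd for Cldn11, Jam3, Gja6, Cdh2, Itgb1 and Pard3 (11% of all genes) and with higher values for Cdh3, Nectin1, Cadm1, Jup and Lamb3 (8.34% of all genes). Pard3 passed the filter only through H+Cd (mean 0.655 FPKM, against 0.304 in H+H+Cd), the group where it was higher, so its place in this count is no support for a difference. Without H+H+Cd replicate 1 the count was 14 of 33 (42.4%), against 28.3% of all genes.

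**Figure D2:**
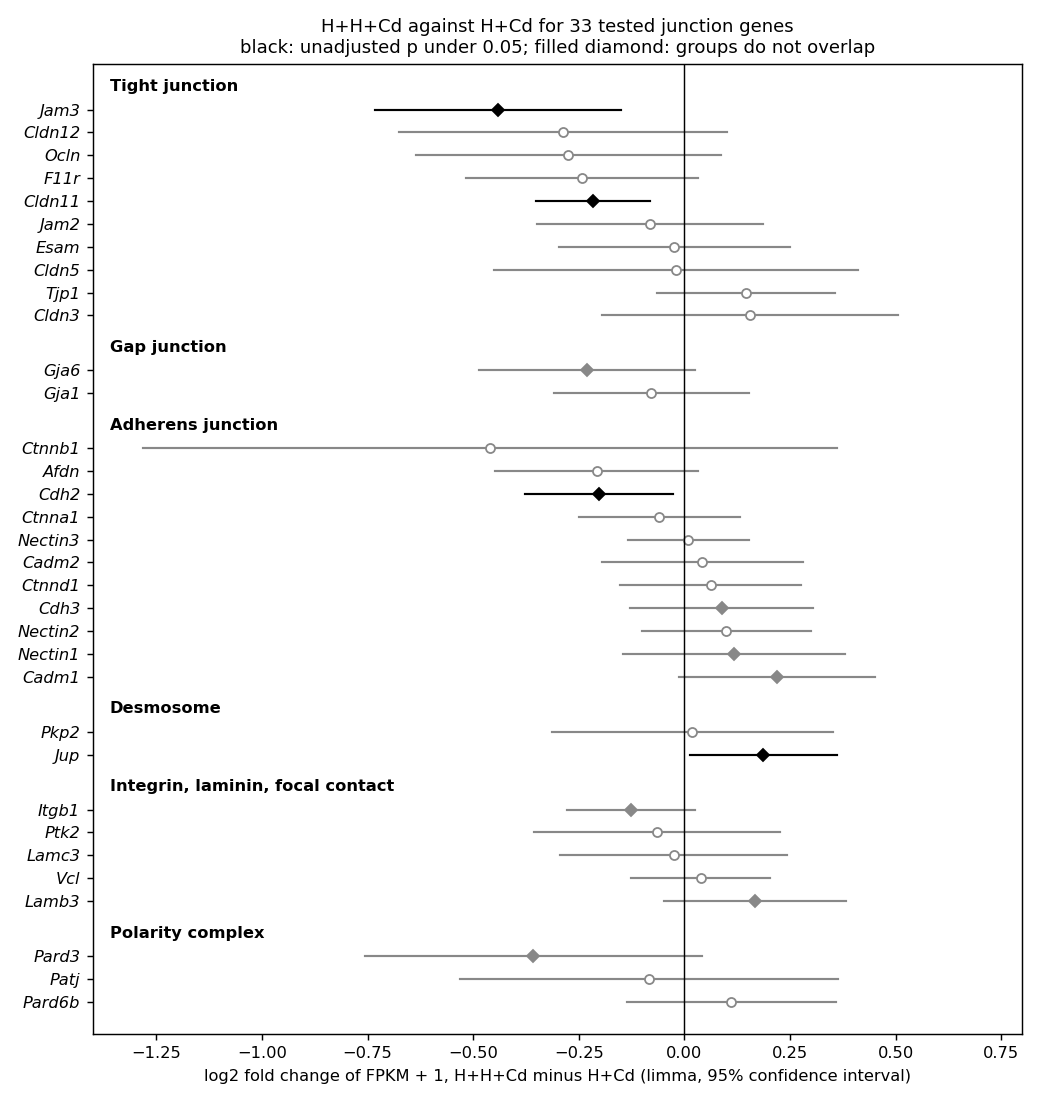
Log2 fold change of FPKM + 1 in H+H+Cd against H+Cd (x axis) for the 33 tested junction genes by junction type, with limma's 95% confidence intervals. Black marks an unadjusted p under 0.05 (Cldn11, Jam3, Cdh2 and Jup), filled diamonds mark the 11 genes whose groups do not overlap, and the interval of most genes includes 0.

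Among the tight junction genes, 8 of the 10 tested had lower mean values on the log2 scale in H+H+Cd. Their median was -0.149, and 0 passed. Cldn11 encodes the claudin that forms the strands between Sertoli cells, and mice without it lack these strands. It was the most abundant tight junction gene, with 33.8, 34.1 and 35.8 FPKM in H+Cd and 29.2, 29.7 and 29.9 FPKM in H+H+Cd. The groups did not overlap, and the libraries within each lay close together (34.6 ± 1.1 and 29.6 ± 0.341 FPKM, SD, n = 3 each). Its log2 fold change was -0.22 (SE 0.06, 95% confidence interval -0.35 to -0.08) with an adjusted p = 0.358 by limma, and -0.207 without H+H+Cd replicate 1. Cldn11 occupies chr3:31149920-31164324 (mm10, plus strand) behind the promoter printed above, and has 1 listed transcript.

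Jam3 encodes JAM-C, an adhesion molecule of the immunoglobulin family that spermatids need for their polarity in mice and that binds JAM-B (Jam2) of the Sertoli cell. Its level was 13.6, 15.0 and 18.2 FPKM in H+Cd and 10.9, 12.2 and 10.4 FPKM in H+H+Cd. All H+H+Cd libraries lay below all H+Cd libraries, and H+Cd replicate 3 was the highest of the 6. The log2 fold change was -0.44 (SE 0.12, 95% confidence interval -0.73 to -0.15, limma adjusted p = 0.358) and -0.428 without H+H+Cd replicate 1. The gene occupies chr9:27097384-27155421 (minus strand) and also has 1 listed transcript. Its partner Jam2 had 6.94 ± 0.811 and 6.5 ± 0.617 FPKM (SD, n = 3 each), and the related F11r (JAM-A) 7.61 ± 0.921 and 6.26 ± 0.571 FPKM, both with overlapping groups.

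Among the other tight junction genes Tjp1, which links claudins and occludin to actin, had 24.9, 22.9 and 21.2 FPKM in H+Cd and 23.9, 25.2 and 27.6 FPKM in H+H+Cd, so that its groups overlapped (log2 fold change 0.15, 95% confidence interval -0.06 to 0.36). Ocln, which encodes occludin, had 2.87, 2.96 and 1.84 FPKM in H+Cd and 1.96, 1.82 and 1.94 FPKM in H+H+Cd. The H+Cd group of Ocln was split, with replicate 3 at the level of the H+H+Cd libraries. This split follows the shorter of its 2 listed transcripts, which was at 0 in H+Cd replicate 3 and in all H+H+Cd libraries. The longer transcript went the other way (log2 fold change 0.40), with overlapping groups. Cldn3, a claudin of newly forming tight junctions in mouse testis, was positive (log2 fold change 0.16), whereas Cldn12 (-0.29), Cldn5 (-0.02) and Esam (-0.02), the last of these known from endothelial cells, were negative, and in all 4 the groups overlapped. Cldn3 had 2.66, 2.13 and 2.53 FPKM in H+Cd and 3.61, 2.48 and 2.48 FPKM in H+H+Cd. Its positive value thus rests on H+H+Cd replicate 1, the library with the high epididymal and placental sums, and was not recomputed without it. The summed level of the 11 tight junction genes was 97.4 to 100.7 FPKM in H+Cd and 87.4 to 90.4 FPKM in H+H+Cd. These ranges did not overlap, nor did those of the 2 desmosomal genes, which lay the other way (7.57 to 8.43 and 9.04 to 9.41 FPKM), whereas the summed levels of the gap, adherens, integrin-laminin and polarity genes overlapped. In the tight junction sum, Cldn11 and Jam3 make up most of the difference by their own values. The desmosomal difference is nearly all that of Jup (means of 7.24 FPKM in H+Cd and 8.37 in H+H+Cd), as Pkp2 had 0.882 and 0.896 FPKM with overlap. Sertoli cell markers, summed as above, were 840.1 to 887.8 FPKM in H+Cd and 817.3 to 840.2 in H+H+Cd. Of the germ cell markers, 10 of the 12 tested had negative log2 fold changes. The part of Sertoli and germ cells in the tight junction values was not tested.

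**Figure D3:**
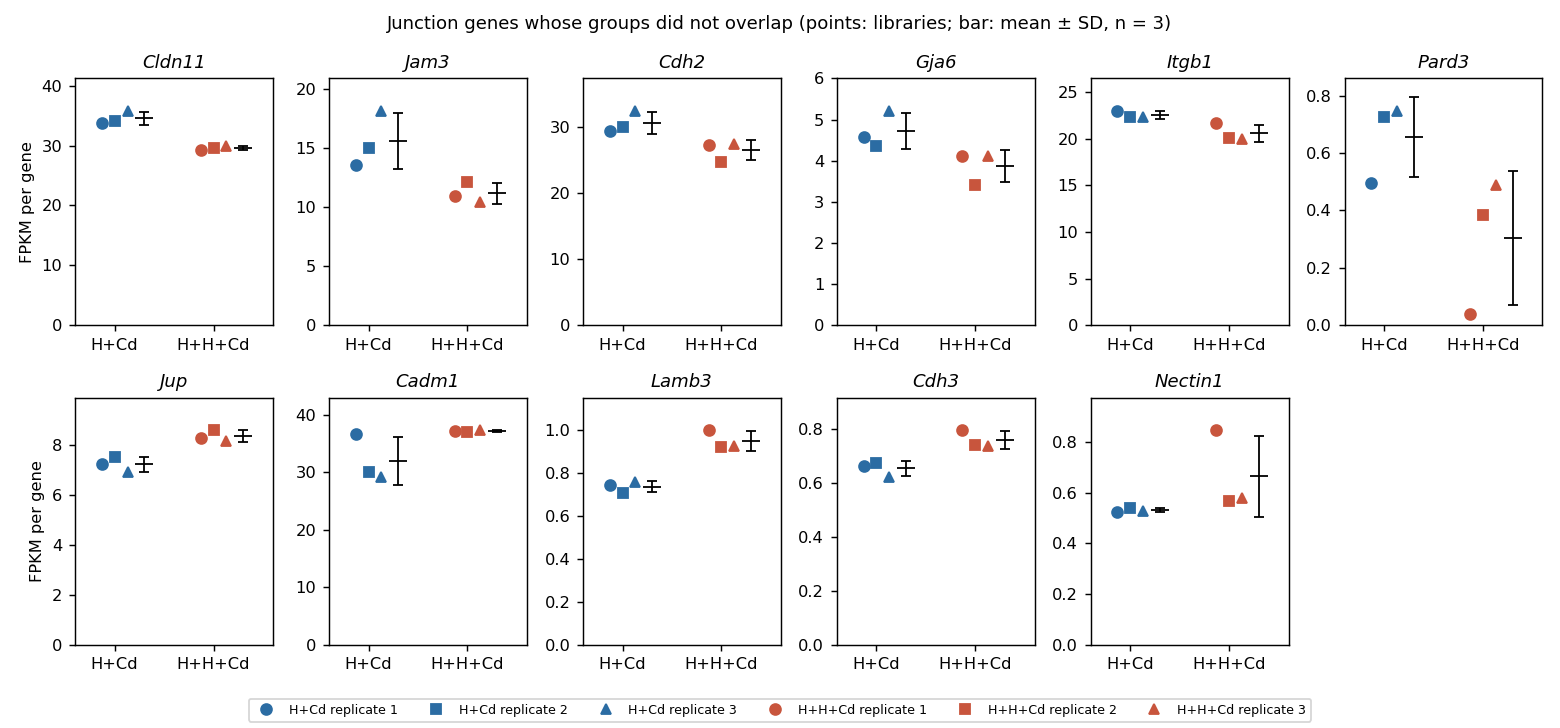
FPKM per gene (y axis, from 0) of the 11 junction genes whose groups did not overlap, in 3 H+Cd libraries (blue) and 3 H+H+Cd libraries (red), with mean ± SD beside the points (n = 3). The groups of Cldn11 are narrow and apart at 33.8 to 35.8 and 29.2 to 29.9 FPKM, whereas those of Cadm1 come close, at 36.7 FPKM in H+Cd replicate 1 and 36.96 FPKM in H+H+Cd replicate 2.

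Gap junctions were represented by Gja1, which encodes the main connexin of Sertoli cells, and by Gja6, an X-linked connexin gene of rodent testis. Gja1 had 18.9, 17.7 and 18.6 FPKM in H+Cd and 19.1, 18.0 and 15.2 FPKM in H+H+Cd. Its groups overlapped, and the log2 fold change, -0.08 (95% confidence interval -0.31 to 0.15), turned to 0.012 without H+H+Cd replicate 3, the lowest library. Gja6 had 4.57, 4.37 and 5.22 FPKM in H+Cd and 4.10, 3.42 and 4.11 FPKM in H+H+Cd. The 3 H+H+Cd libraries lay below the H+Cd libraries, and their log2 fold change was -0.23 (95% confidence interval -0.49 to 0.02, limma adjusted p = 0.449).

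Of the 11 adherens junction genes, 7 were positive and 4 negative, and the median of their log2 fold changes was 0.042. It was 0.015 without H+Cd replicate 1, 0.017 without H+H+Cd replicate 3 and 0.01 with a filter at a mean FPKM above 1. Cdh2 encodes N-cadherin, the classical cadherin of Sertoli and germ cells. Its level was 29.3, 29.9 and 32.4 FPKM in H+Cd and 27.3, 24.7 and 27.4 FPKM in H+H+Cd, without overlap between groups. The log2 fold change was -0.20 (SE 0.07, 95% confidence interval -0.38 to -0.03, limma adjusted p = 0.39), and -0.223 without H+H+Cd replicate 1. In H+Cd replicate 3 the Cdh2 sum holds 19.3 FPKM of a shorter transcript that was at most 0.00393 FPKM elsewhere. The main Cdh2 transcript alone had overlapping groups and a log2 fold change of 0.21, while the gene had -0.159 without H+Cd replicate 3. P-cadherin (Cdh3) was expressed at a far lower level, with 0.663, 0.674 and 0.623 FPKM in H+Cd and 0.797, 0.742 and 0.735 FPKM in H+H+Cd. Here the H+H+Cd libraries were the higher ones, and the log2 fold change was 0.09 (95% confidence interval -0.13 to 0.31).

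The catenins tie cadherins to actin. Ctnnb1 (beta-catenin) had 19.4, 28.5 and 28.1 FPKM in H+Cd and 24.6, 10.2 and 22.6 FPKM in H+H+Cd, a wide scatter for its level. H+H+Cd replicate 2 was the lowest library, H+Cd replicate 1 lay below H+H+Cd replicates 1 and 3, and the log2 fold change was -0.46 (95% confidence interval -1.28 to 0.36). Ctnna1 (alpha-catenin) and Ctnnd1 (p120-catenin) were steady in comparison, with ranges over all 6 libraries of 13.95 to 16.5 and 9.95 to 11.97 FPKM and log2 fold changes of -0.06 and 0.06.

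Nectins and their anchor afadin form the other arm of the adherens junction. The log2 fold change was 0.01 for Nectin3 (95% confidence interval -0.13 to 0.15), and Nectin2 had 16.4 ± 1.17 and 17.6 ± 1.18 FPKM (SD, n = 3 each). Nectin1 had 0.523, 0.539 and 0.530 FPKM in H+Cd and 0.850, 0.568 and 0.578 FPKM in H+H+Cd. Its groups did not overlap, yet H+H+Cd replicate 1, the library with the high sums of epididymal and placental markers, had by far the highest value. The log2 fold change of 0.12 was 0.039 without that library. Afdn (afadin) had 9.35 ± 0.819 and 7.96 ± 0.706 FPKM with overlapping groups.

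Cadm1, an adhesion molecule of spermatogenic cells that binds Sertoli cells and without which male mice are infertile, had 36.7, 30.1 and 29.1 FPKM in H+Cd and 37.1, 36.96 and 37.4 FPKM in H+H+Cd. The H+H+Cd libraries were nearly equal, while H+Cd replicate 1 lay next to them and the other H+Cd libraries were lower. The log2 fold change was 0.22 (SE 0.10, 95% confidence interval -0.01 to 0.45, limma adjusted p = 0.435) and stayed at 0.22 without H+H+Cd replicate 1. The related Cadm2 had about 1 FPKM in both groups, with overlap.

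Desmosomes were represented by the armadillo proteins Jup (plakoglobin, shared with adherens junctions) and Pkp2 (plakophilin). Jup had 7.25, 7.52 and 6.94 FPKM in H+Cd and 8.31, 8.63 and 8.17 FPKM in H+H+Cd. All H+H+Cd libraries lay above all H+Cd libraries, and the log2 fold change was 0.19 (SE 0.07, 95% confidence interval 0.01 to 0.36, limma adjusted p = 0.402). Without H+H+Cd replicate 1 it was 0.191, with an adjusted p = 0.609. Jup occupies chr11:100368958-100397763 (minus strand). Pkp2, which had 0.638 to 1.18 FPKM over the 6 libraries, had a log2 fold change of 0.02. The defining desmosomal cadherins and desmoplakin are among the genes not analysed here, so these values do not describe whole desmosomes.

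Integrin-laminin contacts hold elongated spermatids at the apical ectoplasmic specialisation and Sertoli cells to the basement membrane. Itgb1, which encodes the beta subunit, had 23.0, 22.3 and 22.3 FPKM in H+Cd and 21.6, 20.1 and 20.0 FPKM in H+H+Cd. The groups lay side by side without overlap, and the log2 fold change was -0.13 (95% confidence interval -0.28 to 0.03). Lamb3, a laminin chain of the apical contact, had 0.743, 0.705 and 0.757 FPKM in H+Cd and 0.999, 0.920 and 0.922 FPKM in H+H+Cd. Its H+H+Cd libraries were all higher, at a low level, and the log2 fold change was 0.17 (95% confidence interval -0.05 to 0.38). Lamc3, its partner chain, and the focal contact proteins Vcl (vinculin) and Ptk2 (focal adhesion kinase) had log2 fold changes of -0.03, 0.04 and -0.07, all with overlapping groups.

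Polarity proteins set the position of the junctions along the Sertoli cell membrane. Patj, a scaffold of the Crumbs complex and the most abundant of the 3, had 3.75, 2.23 and 3.29 FPKM in H+Cd and 2.30, 2.76 and 3.46 FPKM in H+H+Cd. Its groups overlapped widely, and its log2 fold change of -0.08 became 0.034 without H+Cd replicate 1 and 0.021 without H+H+Cd replicate 1. Pard3, which encodes the Par complex scaffold, had 0.495, 0.724 and 0.747 FPKM in H+Cd and 0.0403, 0.384 and 0.487 FPKM in H+H+Cd. H+H+Cd replicate 1 was far below the others, and the gene passed the filter only through H+Cd. Its log2 fold change was -0.36 (95% confidence interval -0.76 to 0.04), -0.203 without that library, and -1.127 with a pseudocount of 0.1. Pard6b, another subunit of the Par complex, had 1.95 ± 0.177 and 2.19 ± 0.227 FPKM (SD, n = 3 each), with overlap.

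Single transcripts were compared next. Of the 34 genes, 19 had 1 listed transcript and 15 had more, 61 transcripts in all, of which 58 were tested and 0 passed (limma, Benjamini-Hochberg over 25322 transcripts, smallest adjusted p = 0.539), where 0.13% of all transcripts passed. An unadjusted p under 0.05 was found for 3 of the 58 (5.17%) against 8.24% of all transcripts. They were the listed transcripts of Cldn11 and Jam3, with the values of the genes, and ENSMUST00000085909.8 of Cadm1.

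This Cadm1 transcript, which holds the exon of 33 bases printed above, had 10.4, 4.30 and 5.53 FPKM in H+Cd and 13.2, 11.4 and 13.1 FPKM in H+H+Cd. The groups did not overlap, H+Cd replicate 1 came closest to the H+H+Cd libraries, and the log2 fold change was 0.88 (SE 0.30, limma adjusted p = 0.578). The most abundant Cadm1 transcript, ENSMUST00000114547.7, which lacks that exon, had 17.9, 17.2 and 17.5 FPKM in H+Cd and 16.1, 17.8 and 16.8 FPKM in H+H+Cd, so that its groups overlapped. Of summed Cadm1 FPKM, the 3 transcripts with the exon made up 49.2%, 38.9% and 37.1% in H+Cd and 54.3%, 49.8% and 52.8% in H+H+Cd. This share was chosen after the values had been seen and was not tested. Since the transcripts share most of their length, such shares depend on how the authors' software assigned shared fragments.

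For Tjp1, the transcript without the alpha domain exon was the main form. This form, ENSMUST00000032729.7, had 22.4, 20.2 and 18.7 FPKM in H+Cd and 22.0, 22.9 and 25.5 FPKM in H+H+Cd, on average 88.6% and 91.8% of summed Tjp1 FPKM. The transcript with the exon had between 0.862 and 0.921 FPKM in all 6 libraries, on average 3.84% and 3.56%. The level with the exon was thus low and even across libraries.

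Some transcripts varied between libraries of the same group. For Cdh2, ENSMUST00000115850.1 had 19.3 FPKM in H+Cd replicate 3 and at most 0.00393 FPKM elsewhere, and the main ENSMUST00000025166.13 was lower in that library (13.1 FPKM) than in the other 5 (24.7 to 29.9 FPKM). The Ocln transcript ENSMUST00000022140.11 had 2.17 and 1.74 FPKM in H+Cd replicates 1 and 2 and was listed at 0 in the other 4 libraries, while ENSMUST00000069756.10 had 0.692, 1.22 and 1.84 FPKM in H+Cd and 1.96, 1.82 and 1.94 FPKM in H+H+Cd. Both Ocln transcripts have the same coding sequence of 1563 bases, so they differ only outside it. The same holds for the 2 listed Jup transcripts (2235 coding bases), of which the main one, ENSMUST00000001592.14, had 5.53, 7.52 and 2.49 FPKM in H+Cd and 7.84, 7.73 and 8.17 FPKM in H+H+Cd. ENSMUST00000023334.14, the main transcript of Nectin3, had 93.3, 101.7 and 93.7 FPKM in H+Cd and 99.0, 96.3 and 105.3 FPKM in H+H+Cd, on average 61.2% and 63.2% of summed Nectin3 FPKM. Its groups overlapped. The main Patj transcript, ENSMUST00000041284.9, had 1.55, 1.63 and 1.58 FPKM in H+Cd and 1.81, 1.79 and 1.49 FPKM in H+H+Cd, also with overlap. Of the other genes, Cldn11, Jam3, Gja1, Gja6, Cdh3, Nectin1, Itgb1, Lamb3 and Pard3 had 1 listed transcript each.

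**Figure D4:**
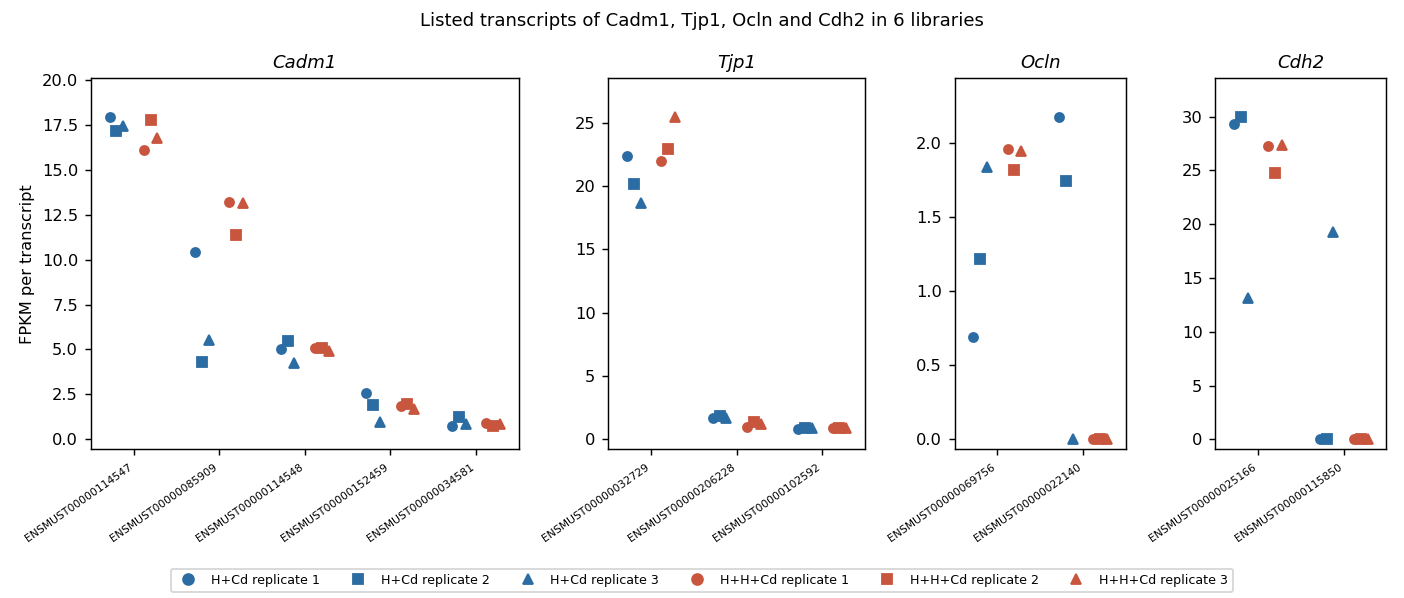
FPKM per listed transcript (y axis) of Cadm1, Tjp1, Ocln and Cdh2 in 3 H+Cd libraries (blue) and 3 H+H+Cd libraries (red). ENSMUST00000085909 of Cadm1 lies at 4.30 to 10.4 FPKM in H+Cd and 11.4 to 13.2 FPKM in H+H+Cd, ENSMUST00000022140 of Ocln is above 0 in H+Cd replicates 1 and 2, and ENSMUST00000115850 of Cdh2 stands out in H+Cd replicate 3.

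Outside the 42, a further list of 122 junction genes (claudins, connexins, cadherins, integrins, laminins and their adaptors) had 68 in the table, all tested, and a list of 28 barrier regulators (kinases, cytokines, endocytic proteins) had 23. Of these 91 genes 0 passed (smallest limma adjusted p = 0.338). Without adjustment 7 of them (7.7%) were under 0.05, 4 higher and 3 lower, against 11.9% of all genes. The 6 with the smallest p are given. Mark4, a microtubule-regulating kinase found at the ectoplasmic specialisation in rat testis, had 2.45, 1.90 and 1.80 FPKM in H+Cd and 4.63, 2.98 and 4.0 FPKM in H+H+Cd (log2 fold change 0.67, adjusted p = 0.338). Igsf11, an adhesion molecule that mice need for an intact barrier, had 29.9, 27.0 and 24.6 FPKM in H+Cd and 33.8, 39.6 and 33.1 FPKM in H+H+Cd (log2 fold change 0.37, adjusted p = 0.358). In both genes all H+H+Cd libraries were higher than all H+Cd libraries. Pkp4, a plakophilin-like protein, had 4.75, 3.97 and 4.44 FPKM in H+Cd and 3.70, 2.69 and 2.20 FPKM in H+H+Cd (log2 fold change -0.50). The rodent claudin Cldn13 had 1.61, 2.01 and 2.31 FPKM in H+Cd and 1.10, 1.59 and 1.14 FPKM in H+H+Cd (-0.39). In both the H+H+Cd libraries were all lower, by a narrow margin at H+H+Cd replicate 1 of Pkp4 and replicate 2 of Cldn13. Pvr, a nectin-like adhesion molecule, had 1.95, 1.26 and 1.86 FPKM in H+Cd and 2.66, 2.12 and 2.65 FPKM in H+H+Cd (0.38), with all H+H+Cd libraries higher. Cav1, which encodes the coat protein of caveolae, had 3.25, 2.98 and 3.34 FPKM in H+Cd and 0.802, 0.812 and 3.0 FPKM in H+H+Cd, so that H+H+Cd replicate 3 lay within the H+Cd range and the other 2 far below it.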

How the data were processed

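Testes of 6 mice (3 H+Cd, 3 H+H+Cd) were grouped by their sample labels. Stranded libraries of poly(A) RNA were read on an Illumina sequencer by the authors, who compared the reads with known transcripts in StringTie and deposited FPKM per transcript from Ballgown. The submitters' processing notes name mm10, whereas an aligner and tool versions were not found in the labels or methods. Low values showed no steps of whole fragments, so depth and counting error could not be recovered.

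Of 27120 transcripts, 27018 (99.6%) were matched without version to GENCODE M21, and FPKM were summed over the listed transcripts of a gene, so a sum covers only these. Testing covered the 13769 genes and 25322 transcripts whose group mean exceeded 0.5 FPKM in H+Cd, H+H+Cd or both. Their log2(FPKM + 1) values were fitted by group in limma 3.58.1 (lmFit, eBayes with trend, two-sided; R 4.3.3), and p-values were adjusted over all features (Benjamini-Hochberg, threshold 0.05). The code was tested on simulated data. Tables were made with Python 3.11.15 and pandas 2.3.3. Promoters were from RefSeq (GRCm38.p6) and exons from GENCODE M21.

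All members are accounted for. Values in every library are given for members with an unadjusted p under 0.05, those whose groups do not overlap and the most abundant of each junction type, for their transcripts by the same p or as the most abundant, and for the 6 other junction genes or regulators of smallest p. Ctnnb1, Tjp1, Ocln, Cldn3 and the further transcripts were singled out after their values were seen. Members, types and lists were chosen with earlier results of these data known. Alternatives were a pseudocount of 0.1, other filters, median-ratio and quantile scaling, limma without trend, F-tests, a replicate block and leaving out each library.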

Additional observations from a re-analysis of the deposited data

How the results depend on the processing

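In each of the alternatives with adjusted p-values, 0 junction genes and 0 of their transcripts passed. By the F-test with an unadjusted p under 0.05 and a fold of mean FPKM above 1.2, 828 of the 13769 genes tested were called. Of the 33 junction genes 2 were (Jam3 and Lamb3), a nearly equal share. Over all genes, where 1 passed, the count was 0 by the adjusted F-test, with no filter and with the replicate block, 3 with a filter at a mean FPKM above 1, without trend and with median-ratio rescaling, and 0 to 3 when 1 library was left out. For transcripts (33) it was 11 to 86 when 1 library was left out (11 without H+Cd replicate 2, 86 without H+Cd replicate 1). The number of junction genes with an unadjusted p under 0.05 (4), a count added after seeing the data, was 7 by the F-test (21.2% against 10.9% of all genes). When 1 library was left out it was 2 (without H+H+Cd replicate 2, 6.06% against 9.79%) to 5. The 5 were found without H+Cd replicate 1 (15.2% against 16.1%) and without H+H+Cd replicate 3 (15.2% against 9.44%). Cldn11 (log2 fold change -0.231 to -0.191) and Jam3 (-0.529 to -0.333) had such a p in all 14 alternatives, in each of which 7.38% to 16.1% of all genes had one. Jup had one in none that left out a library. Cdh2 did not without H+Cd replicate 2, H+Cd replicate 3 or H+H+Cd replicate 2. The median of the junction genes (-0.025) was -0.065 with a filter above 1, -0.043 with no filter, -0.058 with a pseudocount of 0.1 or quantile normalization, and -0.08 to 0.017 when 1 library was left out, so its sign is not settled. The sign turned for Gja1 (-0.143 to 0.012 when 1 library was left out, 0.012 without H+H+Cd replicate 3), Nectin3 (-0.033 to 0.036, with -0.01 without H+Cd replicate 3, -0.033 without H+H+Cd replicate 3) and Patj (-0.245 to 0.034, with 0.034 without H+Cd replicate 1, 0.021 without H+H+Cd replicate 1). The cause of these shifts was not tested.

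Replicate numbers are shared between groups, but deviations of libraries with the same number correlated at -0.075, -0.002 and -0.163, and 0 of the H+Cd libraries correlated best with its own number. These correlations show no pairing by number, but from 3 libraries a group they cannot by themselves exclude one. The sample descriptions number the samples otherwise, the labels state no pairing, and the groups are of different generations. With the replicate block 0 genes, 1 transcript and 0 junction genes passed, and Cldn11, Jam3 and Pard3 had an unadjusted p under 0.05 (9.09%), against 7.53% of all genes. Of these, Pard3 passed the filter only through H+Cd, where it was higher. With 3 libraries a group and unknown depth, small differences of low genes such as Nectin1, Lamb3 and Pard3 are the least certain.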
